A study of Mus musculus with 14 samples.

Results

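Described here are 7 genes of alternative macrophage activation in colonic macrophages: *Mrc1* (MRC1 in the count table), which encodes the mannose receptor, the CD209 lectin genes *Cd209a*, *Cd209b*, *Cd209d*, *Cd209f* and *Cd209g* (CD209A, CD209B, CD209D, CD209F and CD209G), and *Retnla* (RETNLA). They were chosen by name, as endocytic receptors of alternative activation and a secreted marker of the same state, and kept where the count table held a row for them. *Cd209c* and *Cd209e* also had rows but were not among the names chosen. The choice was made with earlier results of these data known, so shares over all genes are given as background only. All 7 were among the 24982 genes in the table, and all 7 passed the filter on low counts that left 13136 genes for testing. *Cd209b* and *Cd209g* passed the filter only through their level in WT mice. A call against WT could hardly be other than lower for these genes.

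Live CD45+, Ly6G-, CD103-, CD64+, CD11b+, Ly6C-, MHCII+ cells were sorted from the lamina propria of colon and cecum of C57BL/6 mice 5 weeks of age, and their poly(A) RNA was sequenced. Every mouse carried *Cdcs1*, a colitis susceptibility allele, so the mice called WT were *Cdcs1* mice with intact *Il10ra* and *Ccr2*. IL10RAKO mice were *Cdcs1*, *Il10ra* -/-, and DKO mice were *Cdcs1*, *Il10ra* -/-, *Ccr2* -/-. A single CCR2KO mouse was *Cdcs1*, *Ccr2* -/-. Both deletions were germline, so cells other than macrophages lacked the genes as well, and both sexes were used in the study. The comparisons used 4 WT, 4 IL10RAKO and 4 DKO mice, each a library of its own. One further WT mouse (mouse 11) and the CCR2KO mouse (mouse 6) were not among the 12 libraries the authors normalized, and their values are given as a description.

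The mannose receptor is an endocytic receptor with several C-type lectin domains that binds mannose, fucose and N-acetylglucosamine on glycoproteins and microbes and delivers them to endosomes. CD209 proteins are C-type lectins related to human DC-SIGN, and the mouse has a cluster of such genes, of which *Cd209a* is known from dendritic cells and monocyte-derived cells and *Cd209b* (SIGN-R1) from marginal zone and lymph node macrophages. *Retnla* encodes RELM-alpha (FIZZ1), a secreted protein of the resistin family and a classical target of IL-4 and IL-13 acting through STAT6. In the gut and other tissues these genes are used as markers of resident or alternatively activated macrophages.

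Levels are given as CPM, a gene's share of a library's reads after TMM scaling, and fold changes as log2 values with their standard error (SE) from edgeR's quasi-likelihood test, with p-values adjusted by Benjamini-Hochberg over the 13136 genes. A gene was called at an adjusted p below 0.05. The 12 libraries held 13085287 to 21216468 reads in genes. WT mouse 11 held 12153000 reads and stood apart with 11670 genes detected, against 13485 to 15450 in those 12. The labels were checked at the deleted genes: *Il10ra* was at 217 to 380 CPM in the 4 WT mice, at 4.89 to 11.2 CPM in IL10RAKO mice and at 3.41 to 7.59 CPM in DKO mice. *Ccr2* was at 514 to 702 CPM in WT mice, at 361 to 627 CPM in IL10RAKO mice and at 3.92 to 6.68 CPM in DKO mice. Genes that define the gate were present in every group, and 9 of them, macrophage markers included, were examined. In IL10RAKO mice 2 were called higher and 0 lower, and in DKO mice 1 was called higher and 2 lower. The MHC class II gene *H2-Ab1*, the most abundant, ranged from 14023 to 18418 CPM in WT mice, from 19794 to 28658 CPM in IL10RAKO mice and from 15689 to 22613 CPM in DKO mice. The macrophage genes called lower in DKO mice were *Adgre1*, which encodes F4/80 (-1.05, adjusted p = 0.0238), and *Cx3cr1* (-1.21, adjusted p = 0.0162). The 1 called higher was *Mertk* (0.98, adjusted p = 0.0386), and the rest of the 9 ranged from -0.11 (*Cd68*) to 0.37 (*Csf1r*). The fall of the 7 genes there thus came with lower levels of 2 general macrophage markers but not of the others called or tested. The part of these markers in the result was not tested. *Ly6c2*, whose product the gate excluded, ranged from 5.80 to 7.64 CPM in WT mice, from 38.4 to 177 CPM in IL10RAKO mice and from 74.9 to 89.0 CPM in DKO mice.

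In WT macrophages *Retnla*, *Cd209a* and *Mrc1* were the abundant members. Per kilobase of exon the WT mean level was 564 ± 90.3 CPM per kb (SD, n = 4) for *Retnla*, 117 ± 88.6 for *Cd209a* and 75.4 ± 13.1 for *Mrc1*. The lower group was led by *Cd209f* at 9.75 ± 4.83 and *Cd209d* at 9.30 ± 3.59, followed by *Cd209b* at 2.39 ± 1.33 and *Cd209g* at 1.75 ± 0.738 CPM per kb. Lengths took in the exons of all annotated transcripts, 2115 bases for *Cd209b* and 3610 for *Cd209g*, and the order can depend on that choice. Only the steps from *Retnla* to *Cd209a* and from *Mrc1* to *Cd209f* separated neighbours in this order with no overlap of their WT ranges. In DKO mice the order was *Cd209a* (17.2 ± 11.3 CPM per kb), *Mrc1* (8.12 ± 3.33), *Cd209d* (0.866 ± 0.414), *Cd209f* (0.329 ± 0.151), *Retnla* (0.289 ± 0.578), *Cd209g* (0.0759 ± 0.0957) and *Cd209b* (0.0344 ± 0.0492), so that *Retnla* no longer stood first but behind 4 other members. There the step from *Mrc1* to *Cd209d* was the single one without overlap.

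**Figure D1:**
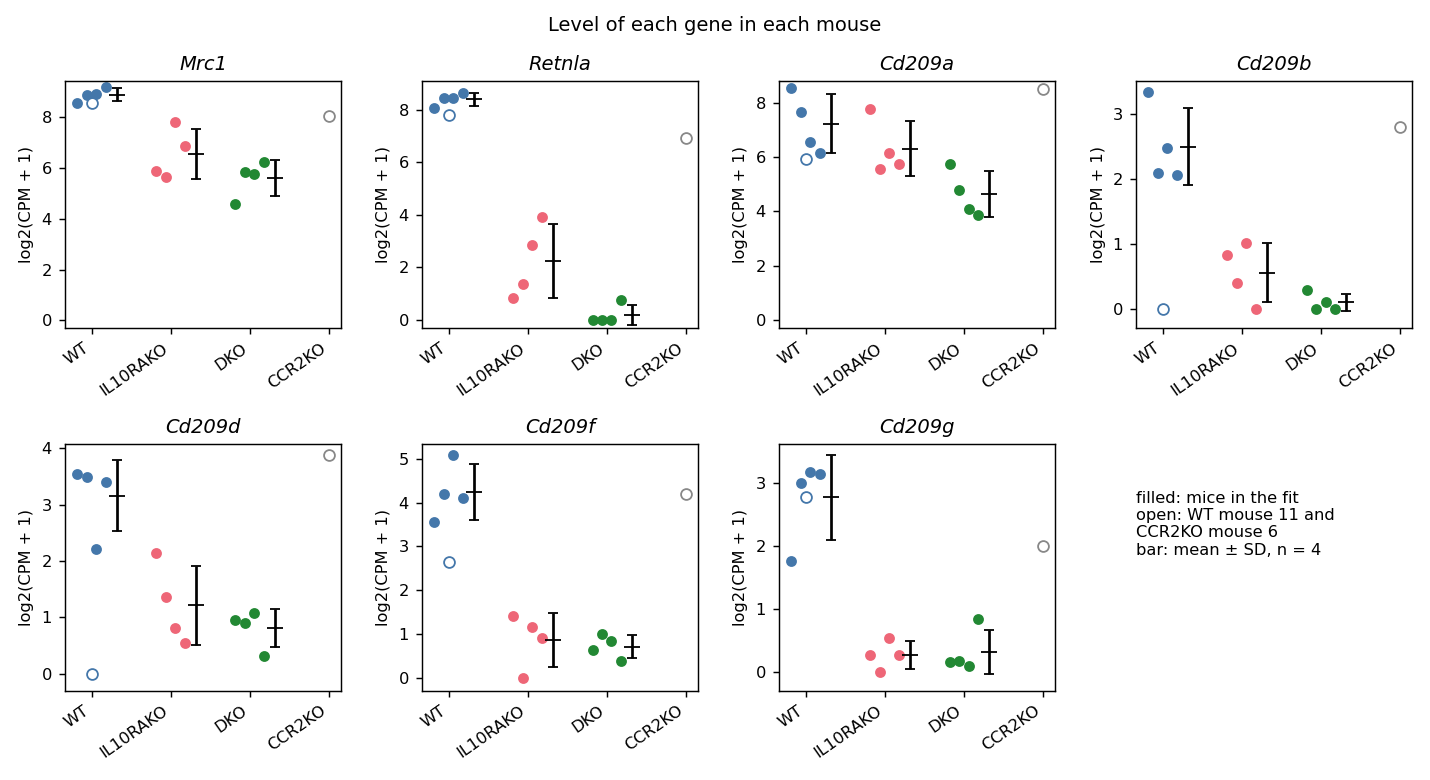
Level of each of the 7 genes as log2(CPM + 1), 1 panel per gene, with 1 point per mouse in WT, IL10RAKO, DKO and CCR2KO mice. Bars are the mean ± SD of the 4 filled points, and open points are WT mouse 11 and CCR2KO mouse 6, which were not in the fit. All DKO points lie below the 4 WT points in every panel, and in IL10RAKO mice only *Cd209a* overlaps them.

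The first comparison asked what loss of *Il10ra* changes in these macrophages. Of the 7 genes, 6 were lower in IL10RAKO than in WT mice and none was higher, and the exception was *Cd209a*. The 6 include *Cd209b* and *Cd209g*, whose direction was largely fixed by the filter. Over all genes tested, 7.10% were called lower, 8.70% higher and 15.8% were called in either direction. The median log2 fold change of the 7 was -3.25, and -3.14 with each library at or below 3 reads set to that floor, against a median of -0.07 over all genes tested. In 6 of the 7 no IL10RAKO mouse reached the lowest WT mouse, a pattern that 8.78% of the genes tested showed in this direction. These RNAs come from sorted bulk cells, in which fewer cells of a type and less RNA per cell cannot be told apart.

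The second comparison asked how macrophages without both receptors differ from WT. All 7 genes were lower in DKO mice, against 9.22% of all genes tested called lower, 9.23% called higher and 18.5% called in either direction. Their median log2 fold change was -4.44, and -4.22 with libraries set to the floor, against -0.06 over all genes tested. All DKO mice lay below all WT mice in 7 of 7 genes, which held for 11.0% of the genes tested in this direction. Both comparisons used the same 4 WT mice. *Cd209b* and *Cd209g*, which passed the filter only through WT mice, are counted among the 7 here as well.

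**Figure D2:**
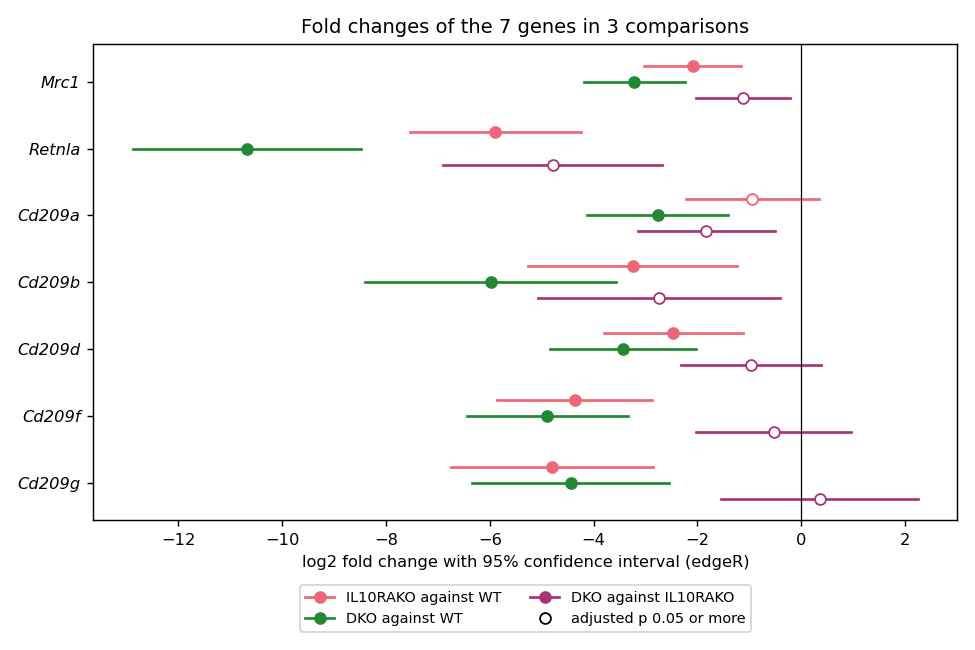
Log2 fold change of each of the 7 genes with its 95% confidence interval from edgeR, for IL10RAKO against WT, DKO against WT and DKO against IL10RAKO. Filled points had an adjusted p below 0.05: 6 of 7 in the first comparison, 7 of 7 in the second and 0 in the third.

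*Mrc1* lies at chr2:14229392-14332057 on the plus strand (mm10, the GRCm38 assembly) and its longest coding transcript has 30 exons. Its level in WT mice 4, 5, 10 and 13 was 383, 467, 485 and 587 CPM. In IL10RAKO mice 1, 2, 7 and 8 it was 58.7, 49.1, 226 and 117 CPM, and in DKO mice 3, 9, 12 and 14 it was 22.9, 56.4, 53.8 and 73.9 CPM. The WT mice did not overlap with either knockout, whereas IL10RAKO mice 7 and 8 lay above all DKO mice and mice 1 and 2 lay among them. The log2 fold change was -2.09 (SE 0.436, adjusted p = 0.00448) in IL10RAKO and -3.21 (SE 0.457, adjusted p = 2.23e-04) in DKO mice, which corresponds to WT means 4.26 and 9.29 times the knockout means. Without IL10RAKO mouse 7 the first ratio was 6.42. The IL10RAKO group was the more variable of the 3, with a coefficient of variation of 72.1% against 17.4% in WT and 41.0% in DKO mice. An intron of *Mrc1* (intron 5) holds the gene of miR-511, and the mature miR-511-3p at chr2:14261051-14261072 (RefSeq, GRCm38.p6), with its seed (bases 2 to 8) in capitals, is shown to mark that product of the locus.

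mmu-miR-511-3p: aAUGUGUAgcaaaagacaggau

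The row of that hairpin held 0 to 6 reads in any library, and a poly(A) library of this kind does not measure the mature miRNA.

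*Retnla*, at chr16:48842551-48844461 on the plus strand with 4 exons, showed the largest difference of the 7. Its level was 267, 343, 342 and 399 CPM in WT mice 4, 5, 10 and 13, and 0.766, 1.56, 6.22 and 14.1 CPM in IL10RAKO mice 1, 2, 7 and 8. In DKO mice 3, 9 and 12 no read was counted, and mouse 14 had 14 reads (0.692 CPM). The 3 genotypes therefore did not overlap with one another in CPM at this gene, although IL10RAKO mouse 1 had fewer reads (11) than DKO mouse 14. The log2 fold change was -5.89 (SE 0.770, adjusted p = 1.31e-04) in IL10RAKO mice, where the WT mean was 59.6 times the knockout mean, and 119 times without IL10RAKO mouse 8. In DKO mice the fitted value was -10.68 (SE 1.03, adjusted p = 8.31e-06), which depends on the prior count because 3 of the 4 libraries were at 0. With those libraries set to the floor of 3 reads (0.124 to 0.211 CPM across the libraries), *Retnla* was at least 1076-fold lower in DKO than in WT mice, and at least 1798-fold lower without mouse 14. Such floors cover counting error only.

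The first 250 bases upstream of the annotated starts of *Mrc1* and *Retnla* (RefSeq, GRCm38.p6) are shown because the 2 genes fell in both knockouts and are the members best known from alternative activation. Motifs were searched on both strands in the window from 250 bases before to 50 bases after the start: TTCNNNGAA (a STAT site), the same ends TTC and GAA with 4 bases between them (the spacing preferred by STAT6), GAGGAA (the core bound by the macrophage factor PU.1) and TGANTCA (an AP-1 site). Capitals mark matches, and TTCCTC is the PU.1 core on the opposite strand.

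Mrc1, chr2:14229164-14229413, plus strand: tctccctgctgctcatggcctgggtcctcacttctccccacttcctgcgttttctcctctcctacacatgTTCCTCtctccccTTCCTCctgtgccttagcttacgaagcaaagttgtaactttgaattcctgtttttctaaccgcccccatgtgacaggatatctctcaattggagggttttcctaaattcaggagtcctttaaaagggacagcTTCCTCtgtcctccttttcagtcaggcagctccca

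Retnla, chr16:48842359-48842608, plus strand: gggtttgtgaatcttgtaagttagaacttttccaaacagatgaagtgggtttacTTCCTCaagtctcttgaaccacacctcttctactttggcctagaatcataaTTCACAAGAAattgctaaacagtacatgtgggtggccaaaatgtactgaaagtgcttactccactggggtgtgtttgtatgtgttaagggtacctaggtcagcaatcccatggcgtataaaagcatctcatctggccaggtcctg

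Counting back from -1, the base before the start, the *Mrc1* window held the PU.1 core at -180, -167 and -35. Of the 32851 promoter windows of the same length, 28.3% held at least 1 such core and 0.685% held at least 3. The *Retnla* window held a PU.1 core at -196 and the STAT6 spacing, TTCACAAGAA, at -145, which 6.95% of all windows held. Among the 7 genes, 3 held the PU.1 core, 1 the STAT6 spacing, 2 the AP-1 site and 0 the TTCNNNGAA site, which 8.30% of all windows held. These are matches of letters and not measured binding sites.

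The CD209 genes lie in 1 cluster on chromosome 8 between 3743397 and 4137707, with *Cd209g* on the plus strand and the other members on the minus strand. *Cd209a* was the most abundant of them and, with a coefficient of variation of 75.5%, the most variable of the 7 in WT mice. Its level was 378, 200.1, 94.0 and 70.5 CPM in WT mice 4, 5, 10 and 13, and 219, 46.1, 70.1 and 52.1 CPM in IL10RAKO mice 1, 2, 7 and 8. In DKO mice 3, 9, 12 and 14 it was 52.7, 26.7, 16.2 and 13.5 CPM. IL10RAKO mouse 1 lay above 3 of the 4 WT mice, while all DKO mice lay below all WT mice.

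The log2 fold change of *Cd209a* in IL10RAKO mice was -0.94 (SE 0.596, adjusted p = 0.322), with a 95% confidence interval from -2.22 to 0.34, which includes the value of *Mrc1*. It moved with single mice: without IL10RAKO mouse 1 it was -1.72 (adjusted p = 0.0716), with a WT mean 3.31 instead of 1.92 times the IL10RAKO mean, and without WT mouse 4 it was -0.32 (adjusted p = 0.736), with adjusted p-values over all alternatives in that range. In DKO mice it was -2.77 (SE 0.633, adjusted p = 0.00723), with a WT mean 6.81 times the DKO mean, or 4.46 times without WT mouse 4. *Cd209a* made up 65.6% to 91.9% of the summed CPM of the 5 CD209 members in WT mice, 95.3% to 97.3% in IL10RAKO mice and 88.8% to 96.7% in DKO mice. In WT mice its order followed the summed level of 6 dendritic cell markers (*Ccr7*, *Clec9a*, *Flt3*, *Itgax*, *Xcr1*, *Zbtb46*), which was 1286, 998, 539 and 530 CPM in mice 4, 5, 10 and 13. That sum was 1743 to 2331 CPM in IL10RAKO and 1664 to 2329 CPM in DKO mice, above all WT mice, and 3 of its 6 genes were called higher in each knockout. *Ccr7* and *Itgax* made up most of the sum. *Ccr7* was at 194 to 921 CPM in WT, 1288 to 1760 CPM in IL10RAKO and 973 to 1706 CPM in DKO mice. *Flt3* (0.44 in IL10RAKO, -0.27 in DKO) and *Zbtb46* (0.91 and 0.59) were not called in either knockout. The part of dendritic cells in the *Cd209a* values was not tested.

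*Cd209b* was low throughout. It was at 9.17, 3.28, 4.56 and 3.20 CPM in WT mice 4, 5, 10 and 13, at 0.766, 0.311, 1.01 and 0 CPM in IL10RAKO mice 1, 2, 7 and 8, and in the DKO mice it held 4, 0, 1 and 0 reads. The groups did not overlap with WT. The log2 fold change was -3.25 (SE 0.941, adjusted p = 0.0305) in IL10RAKO and -5.98 (SE 1.13, adjusted p = 0.00198) in DKO mice, and with libraries set to the floor of 3 reads the WT mean was 26.3 times the DKO mean. The IL10RAKO call was near the threshold: it was lost when WT mouse 4 (adjusted p = 0.0669), or IL10RAKO mouse 1 (0.0665), mouse 2 (0.0898) or mouse 8 (0.0545) was left out, with an adjusted p over all alternatives from 9.06e-04 to 0.173.

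*Cd209d* was at 10.7, 10.2, 3.64 and 9.59 CPM in WT mice 4, 5, 10 and 13 and at 3.41, 1.56, 0.759 and 0.462 CPM in IL10RAKO mice 1, 2, 7 and 8. In DKO mice 3, 9, 12 and 14 it was at 0.939, 0.872, 1.12 and 0.247 CPM. WT mouse 10 lay far below the other WT mice and just above IL10RAKO mouse 1. The log2 fold changes were -2.47 (SE 0.625, adjusted p = 0.0151) in IL10RAKO and -3.43 (SE 0.657, adjusted p = 0.00219) in DKO mice. The WT mean was 5.52 times the IL10RAKO mean, and 9.23 times without IL10RAKO mouse 1. Both calls of *Cd209d* and the IL10RAKO call of *Cd209b* were lost when WT mouse 11, which had no read of either gene, was added to the fit (adjusted p = 0.209, 0.0765 and 0.173).

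*Cd209f* and *Cd209g* fell further in IL10RAKO mice than the other CD209 genes did in fitted value, and they are the pair whose reads could be confused. *Cd209f* was at 10.8, 17.4, 33.1 and 16.2 CPM in WT mice 4, 5, 10 and 13, at 1.67, 0, 1.21 and 0.859 CPM in IL10RAKO mice 1, 2, 7 and 8 and at 0.552, 0.996, 0.773 and 0.297 CPM in DKO mice 3, 9, 12 and 14. Its log2 fold change was -4.37 (SE 0.699, adjusted p = 6.57e-04) in IL10RAKO and -4.89 (SE 0.723, adjusted p = 3.01e-04) in DKO mice. The highest knockout value lay below the lowest WT value, and the 2 knockouts overlapped with each other.

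*Cd209g* was at 2.39, 7.03, 8.03 and 7.86 CPM in WT mice 4, 5, 10 and 13. It held 0 to 9 reads in the IL10RAKO and 1 to 16 reads in the DKO mice, with 3 of the 4 libraries of each group at or below 3 reads. Its fitted log2 fold change was -4.80 (SE 0.909, adjusted p = 0.00229) in IL10RAKO and -4.44 (SE 0.884, adjusted p = 0.00289) in DKO mice. With libraries set to the floor, the WT mean was 24.1 times the IL10RAKO mean and 18.7 times the DKO mean, or 33.7 times the DKO mean without DKO mouse 14.

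Shared sequence was sought in GENCODE transcripts that have a coding sequence, and transcripts without one were not examined. Of all 100-base windows in these transcripts of *Cd209f*, 25.5% occurred in *Cd209g* as well, and 29.6% of those of *Cd209g* occurred in *Cd209f*. No such window was shared among the other CD209 genes. Fragments wholly within shared sequence cannot be assigned to 1 of the 2 genes, so the split between them is uncertain. The sequenced fragments were on average longer than 100 bases and can reach unshared sequence, so these percentages are not shares of fragments. Their longest identical coding stretch, 178 bases from coding base 184 of *Cd209f* and from coding base 1 of *Cd209g*, is printed to make the overlap visible, beside the 26 bases that *Cd209b* and *Cd209c* share, the next longest run among the CD209 genes.

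Cd209f and Cd209g: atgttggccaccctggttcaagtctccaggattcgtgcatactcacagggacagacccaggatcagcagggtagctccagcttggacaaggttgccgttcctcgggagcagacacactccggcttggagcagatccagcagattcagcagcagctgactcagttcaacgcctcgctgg

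Cd209b and Cd209c: cctggatgggcctgtcagacctgaag

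The sum of *Cd209f* and *Cd209g*, which does not depend on how such reads were split between them but does on whether they were counted, was 25.7 ± 11.5 CPM in WT mice, 1.15 ± 0.843 CPM in IL10RAKO mice and 0.928 ± 0.216 CPM in DKO mice (SD, n = 4 each). The lowest WT sum was 13.2 CPM and the highest knockout sum was 1.88 CPM. The likeness extends to the bases before the RefSeq starts, which are not all upstream in GENCODE. There *Cd209g* starts at 4134098, so its whole window below lies inside the gene. *Cd209f* starts at 4105835 on the minus strand, so part of its window does. Whether the shared run belongs to the transcript windows counted above was not examined. The 250 bases before the RefSeq starts share an identical run of 154 bases, from -154 to -1 in *Cd209f* and from -168 to -15 in *Cd209g*, that includes the AP-1 site TGAGTCA (capitals) at -83 and -97. AP-1 sites were found in 7.81% of all promoter windows.

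Cd209f, chr8:4105765-4106014, minus strand: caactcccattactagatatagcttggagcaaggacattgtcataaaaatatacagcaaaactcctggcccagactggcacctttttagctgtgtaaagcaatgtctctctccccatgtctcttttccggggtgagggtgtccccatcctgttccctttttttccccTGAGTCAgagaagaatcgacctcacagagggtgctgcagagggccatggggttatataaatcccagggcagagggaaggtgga

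Cd209g, chr8:4134486-4134735, plus strand: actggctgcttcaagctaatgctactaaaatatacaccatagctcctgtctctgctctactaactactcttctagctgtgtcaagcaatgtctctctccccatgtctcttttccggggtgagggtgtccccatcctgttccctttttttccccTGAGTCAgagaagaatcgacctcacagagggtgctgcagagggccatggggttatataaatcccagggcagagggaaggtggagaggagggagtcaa

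The third comparison asked what further loss of *Ccr2* changes in macrophages that already lack *Il10ra*. None of the 7 genes was called between DKO and IL10RAKO mice, by edgeR or by DESeq2, against 0.0457% of all genes tested by edgeR. At an unadjusted p below 0.05 there were 4 of 7, against 2.95% of all genes, and 6 of the 7 fitted values were negative. *Retnla* was the single gene whose groups did not overlap (1.28% of all genes showed this in the lower direction). The nearest mice were DKO mouse 14 (0.692 CPM, 14 reads) and IL10RAKO mouse 1 (0.766 CPM, 11 reads), so the gap rests on library scaling of few reads. The fitted log2 fold change of *Retnla* was -4.79 (SE 0.984, unadjusted p = 2.37e-04, adjusted p = 0.284). With libraries at the floor its IL10RAKO mean was 18.1 times the DKO mean, 9.07 times without IL10RAKO mouse 8 and 30.2 times without DKO mouse 14. The other 3 past the unadjusted threshold were *Mrc1* at -1.12 (SE 0.427), *Cd209a* at -1.83 (SE 0.614) and *Cd209b* at -2.74 (SE 1.09), all with an edgeR adjusted p of 1.00. For *Cd209d*, *Cd209f* and *Cd209g* the values were -0.96, -0.53 and 0.36, with 95% confidence intervals from -2.31 to 0.39, from -2.02 to 0.97 and from -1.54 to 2.25.

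The CCR2KO mouse gives an unreplicated view of *Ccr2* loss with *Il10ra* intact, and no test was possible. *Mrc1* was at 265 CPM and *Retnla* at 120.0 CPM there, each below all 5 WT mice and above all IL10RAKO and DKO mice. *Cd209a* was at 363 CPM, between the highest and the second WT mouse, and *Cd209d* at 13.8 CPM was above all WT mice. *Cd209b* (5.97 CPM), *Cd209f* (17.3 CPM) and *Cd209g* (3.01 CPM) lay within the range of the WT mice. In WT mouse 11 *Mrc1* was at 381 CPM, *Retnla* at 222, *Cd209a* at 59.9, *Cd209f* at 5.20 and *Cd209g* at 5.86 CPM, and *Cd209b* and *Cd209d* were at 0.

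Relatives of the members did not all move with them. Of the mannose receptor family, *Ly75* (DEC-205, an endocytic receptor of dendritic cells) rose, with a log2 fold change of 2.35 (SE 0.584, adjusted p = 0.0135) in IL10RAKO and 3.42 (SE 0.603, adjusted p = 0.00120) in DKO mice. It ranged from 0.0666 to 2.86 CPM in WT mice, from 5.50 to 14.4 CPM in IL10RAKO mice and from 15.4 to 26.1 CPM in DKO mice, and the 3 ranges did not overlap. *Mrc2* and *Pla2r1*, the other 2 of the 3 relatives listed, were too low to be tested. Of the other CD209 genes, *Cd209c* was called lower in DKO mice (-2.82, SE 0.773, adjusted p = 0.0201) and was at -1.25 (adjusted p = 0.271) in IL10RAKO mice, and *Cd209e* was at -2.61 (adjusted p = 0.168) and -2.58 (adjusted p = 0.186). Of the resistin family, *Retnlb* and *Retnlg* were not called in any comparison and *Retn* was too low to be tested, so *Retnla* alone of the family was called lower.

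Genes of the IL-4 and IL-13 pathway, the inducers of *Retnla* and *Mrc1* in textbook alternative activation, were examined as a list of 9, of which 7 were tested. In each knockout 3 of the 7 were called higher and none lower, namely the receptor chains *Il4ra*, *Il13ra1* and *Il2rg*. Their log2 fold changes were 0.75, 1.01 and 1.20 in IL10RAKO and 0.62, 1.04 and 1.38 in DKO mice. The kinase genes *Jak1*, *Jak3* and *Tyk2* and the transcription factor gene *Stat6* were not called, with values from -0.06 to 0.28. The cytokine genes *Il4* (0 to 17 reads a library) and *Il13* (0 to 2 reads) were too low to be tested. Of 6 transcription regulators, *Egr2* was called higher (1.75 in IL10RAKO, 2.04 in DKO) and *Pparg*, a nuclear receptor needed for alternative activation, was called lower (-1.20 and -2.54), and *Irf4*, *Klf4*, *Kdm6b* and *Myc* were not called.

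The further effectors and markers of alternative activation split in direction. Of 13 tested out of 14 listed, 5 were called higher and 3 lower in IL10RAKO mice, and 6 higher and 4 lower in DKO mice, with medians of 0.88 and 0.73. *Arg1*, which encodes the arginine-degrading enzyme arginase, had a log2 fold change of 3.79 (SE 0.669, adjusted p = 0.00140) in IL10RAKO and 4.04 (SE 0.676, adjusted p = 8.01e-04) in DKO mice, from a WT mean of 3.27 ± 2.10 CPM to 45.0 ± 36.5 and 53.4 ± 22.4 CPM. The checkpoint ligand gene *Pdcd1lg2* (2.89 and 3.09), the transglutaminase gene *Tgm2* (2.91 and 2.82), the chemokine gene *Ccl22* (2.78 and 2.5) and the signalling inhibitor gene *Cish* (1.97 and 1.71) were called higher in both knockouts as well. The haemoglobin scavenger receptor gene *Cd163* (-4.66 and -6.08), the lectin gene *Mgl2* (-2.17 and -2.73) and the eotaxin gene *Ccl24* (-4.14 and -1.80) were called lower in both. *Clec10a*, the other macrophage galactose lectin, was called lower in DKO mice (-1.80, adjusted p = 1.55e-04) and was at -0.57 (adjusted p = 0.122) in IL10RAKO mice. *Ccl24* was the single gene of these lists called between DKO and IL10RAKO mice (2.33 higher in DKO, SE 0.319, adjusted p = 0.00906).

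**Figure D3:**
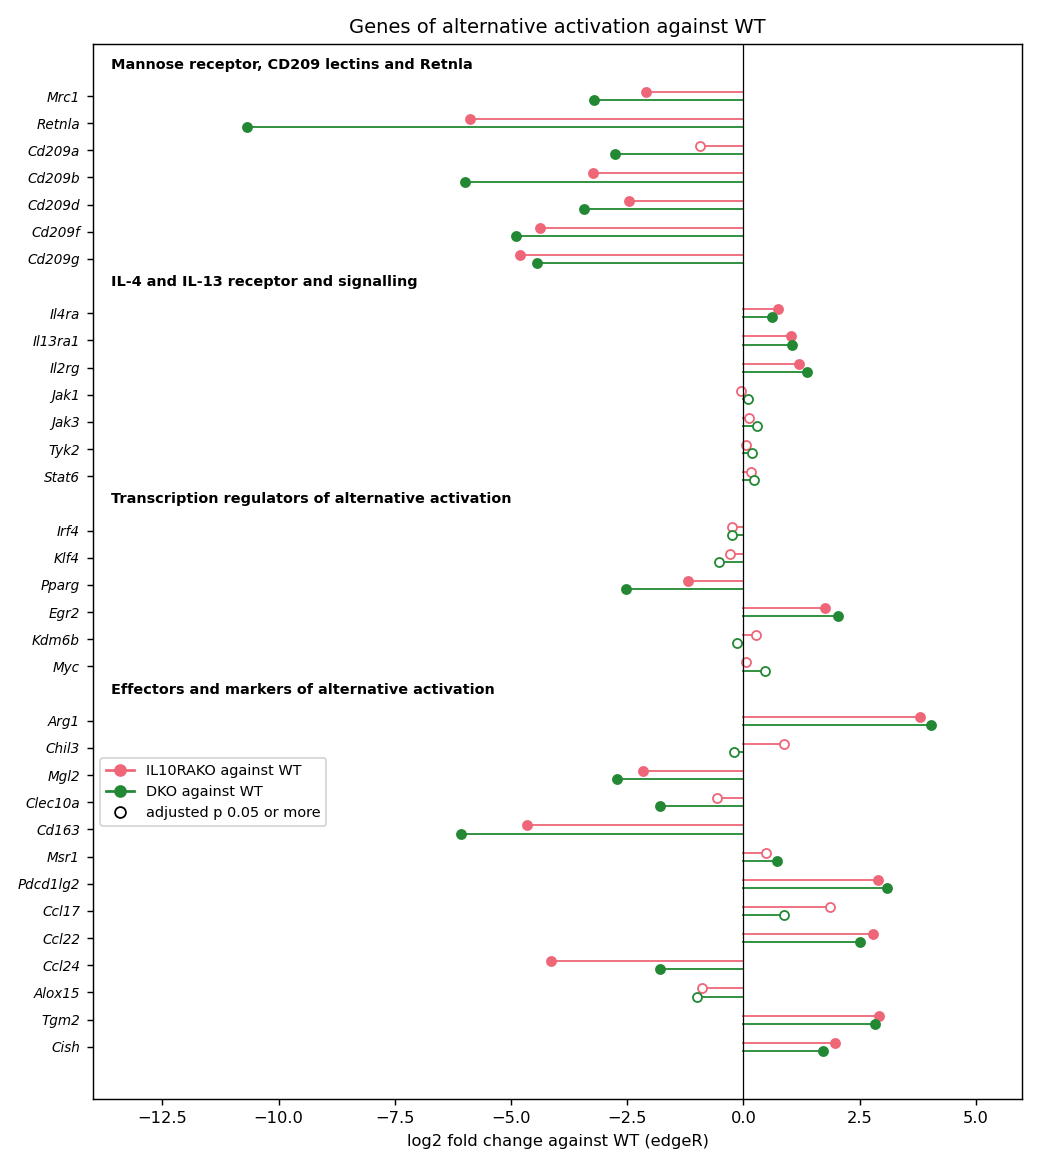
Log2 fold change against WT of the 7 genes and of the tested genes of 3 lists of alternative activation, for IL10RAKO and DKO mice, with filled points for an adjusted p below 0.05. The 7 genes all point to lower values, whereas the effector list holds genes called in both directions, from -6.08 for *Cd163* to 4.04 for *Arg1* in DKO mice.

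By the root mean square difference of gene-centred log2 CPM over the 12 libraries, the 3 genes whose pattern was nearest to *Mrc1* were *Pf4* (0.362), *Stard8* (0.389) and *Ccl2* (0.395). *Pf4*, which encodes a platelet and macrophage chemokine, had a mean of 249.7 ± 71.5 CPM in WT mice, 35.5 ± 24.8 CPM in IL10RAKO mice and 22.0 ± 4.89 CPM in DKO mice. For *Retnla* they were *Cbr2* (1.86), *Lyve1* (1.95) and *Folr2* (2.10), at a distance that no other member's nearest genes reached. This distance is not scaled, so it grows with differences in the size of the change between genotypes, which was largest for *Retnla*. *Lyve1*, a hyaluronan receptor gene of lymphatic endothelium and perivascular macrophages, had a mean of 102 ± 18.1 CPM in WT mice, 2.46 ± 1.80 CPM in IL10RAKO mice and 1.03 ± 1.20 CPM in DKO mice.

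Nearest to *Cd209a* were *Lilra6* (0.720), *Tedc2* (0.733) and *Clec10a* (0.779). For *Cd209f* they were *Fcna* (0.718), *Alox5* (0.771) and *Gas6* (0.835), and for *Cd209g* *Cdc42ep1* (0.529), *Gm11747* (0.555) and *Gas6* (0.608). The genes nearest to *Cd209b* included *Fgfr1* (0.693) and *Sox17* (0.841), and those nearest to *Cd209d* included *Mfap5* (0.648) and *Tgfb1i1* (0.679). *Sox17* is known from endothelium and *Mfap5* from fibroblasts, so genes known from other cell types were among the nearest, and the part of such cells was not tested. Among the members themselves the closest pair was *Cd209f* and *Cd209g* (1.01), the pair with shared sequence. *Cd209a* and *Cd209d* (1.02), which share no 100-base window in their coding transcripts, and *Mrc1* and *Cd209g* (1.03) were almost as close. *Retnla*, the member with the largest change, was the farthest from every other member (2.87 to 3.85) on this unscaled distance.

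Markers of other cell types moved with the genotypes, and they stand beside all results against WT above. The summed level of 6 fibroblast markers was 294, 577, 301 and 553 CPM in WT mice 4, 5, 10 and 13, 15 to 53.7 CPM in IL10RAKO and 16.1 to 67.0 CPM in DKO mice, and all 6 (*Col1a1*, *Col1a2*, *Col3a1*, *Dcn*, *Lum*, *Pdgfra*) were called lower in each knockout. None of the 6 was at 0 in any of the 12 libraries. The part of fibroblast RNA in the lower values of the 7 genes was not tested. Of 6 endothelial markers, 5 were tested, all with negative fitted values in both knockouts. In IL10RAKO mice 0 were called, with log2 fold changes from -1.96 (*Cdh5*) to -0.47 (*Pecam1*). In DKO mice 1, *Pecam1*, was called lower (-0.80, adjusted p = 0.0358), and the others ranged from -1.69 (*Stab2*) to -0.74 (*Kdr*). Sums of the 6 were 75.8 to 195 CPM in WT, 64.1 to 104 CPM in IL10RAKO and 49.5 to 83.2 CPM in DKO mice. *Prox1*, which was not tested, was at 0 in 2 of the 4 WT libraries. All 3 neutrophil markers (*Csf3r*, *S100a8*, *S100a9*) were called higher in both knockouts, and *S100a9* was at 0 in all 4 WT mice. Among 3 tested T and NK cell markers *Nkg7* was called higher in DKO mice (2.01, adjusted p = 0.0350). No tested marker of epithelium, of B and plasma cells or of mast cells, basophils and eosinophils (3 of 5 tested) was called. Epithelial sums were 17.9, 103, 838 and 66.1 CPM in WT mice 4, 5, 10 and 13 and 2174 CPM in WT mouse 11. They were 15.3 to 94.0 CPM in IL10RAKO and 81.2 to 133 CPM in DKO mice. B and plasma cell sums were 376 to 1492 CPM in WT, 273 to 763 CPM in IL10RAKO and 316 to 1437 CPM in DKO mice. The part of these cells was not tested either.

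**Figure D4:**
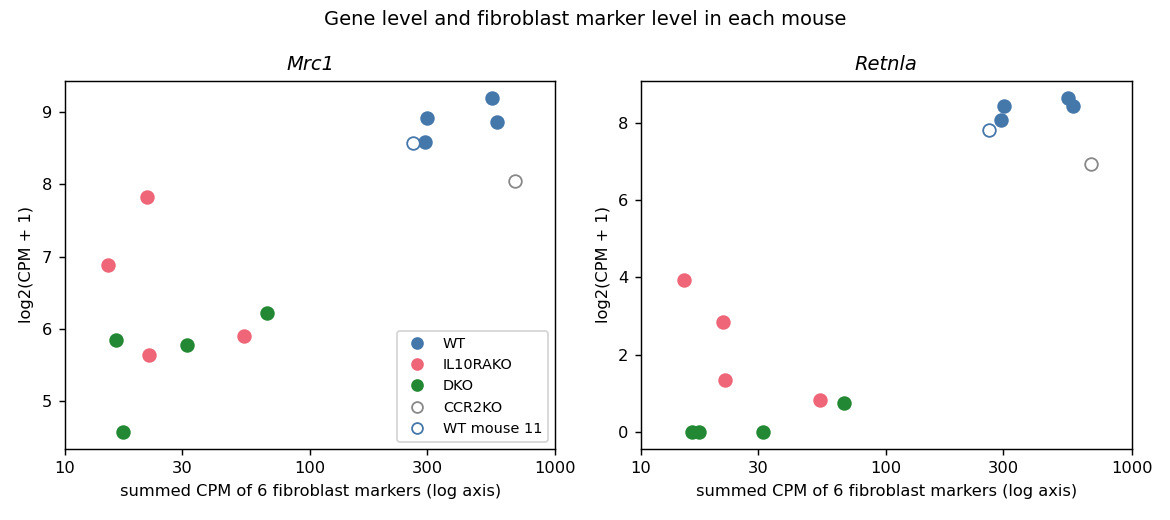
Level of *Mrc1* (left) and *Retnla* (right) as log2(CPM + 1) against the summed CPM of 6 fibroblast markers on a log axis, 1 point per mouse, with open points for WT mouse 11 and CCR2KO mouse 6. The 4 WT mice of the fit lie at 294 to 577 CPM of fibroblast markers with high *Mrc1* and *Retnla*, and the knockout mice at 15 to 67.0 CPM with lower values. CCR2KO mouse 6 has the highest fibroblast sum, 681 CPM, with both genes below the WT mice.

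In the CCR2KO mouse the fibroblast sum was 681 CPM, above all WT mice. *Mrc1* and *Retnla* were below all WT mice there, *Cd209d* (13.8 CPM) was above them, *Cd209a* (363 CPM) was above 4 of the 5, and the other 3 members lay within the WT range. Within the knockouts the order of the mice differed between members, which describes single mice only. Several of these orders rest on few reads, such as 0 to 9 for *Cd209g* in IL10RAKO mice. The part of fibroblast RNA in them was not tested. Among IL10RAKO mice 1, 2, 7 and 8, with fibroblast sums of 53.7, 22.0, 21.6 and 15 CPM, *Cd209d* fell in the order of the sums and *Cd209a* and *Cd209f* were highest in mouse 1, whereas *Retnla* ran in the opposite order and *Mrc1*, *Cd209b* and *Cd209g* were highest in mouse 7. Among DKO mice the sum was highest in mouse 14 (67.0 CPM), which was the single one with *Retnla* reads and the highest for *Mrc1* and *Cd209g*, and the lowest for *Cd209a*, *Cd209d* and *Cd209f*.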

How the data were processed

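Each library is the RNA of macrophages sorted from 1 mouse. The authors aligned the reads to the UCSC mm10 genome and counted reads per gene with STAR 2.5.1b, and the deposited counts are whole numbers, not normalized. The gene annotation, the strand setting and the treatment of reads matching several genes are not given in the sources used here. A deposited table of edgeR pseudocounts, which the authors made with edgeR 3.34.0 for 12 of the 14 libraries and 13338 genes and which is treated as a score, set which libraries entered the fit and gave no value printed here. No column of per-sample values was left out.

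Counts were filtered with filterByExpr (minimum count 10), scaled by TMM and tested with edgeR 4.0.16 (glmQLFit and glmQLFTest) in 1 fit over the 12 libraries, with adjusted p-values by Benjamini-Hochberg over 13136 genes. The fitting step was tested on simulated data. CPM used TMM-scaled library sizes, and levels per kb the exonic length of GENCODE vM21. A depth of 13085287 to 21216468 reads puts the floor of 3 reads at 0.124 to 0.211 CPM.

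Alternatives were DESeq2 1.42.0, RLE or total-count scaling, no filter, at least 10 reads in every library, fits of 2 genotypes only, of 13 libraries, robust or bias-adjusted, a test against a 1.5-fold change, and each library left out in turn. Named are the 7 members, the 2 deleted genes, the listed genes called or related to a member, and the 3 nearest genes per member. Some of the nearest genes and 1 marker list are not reported here. The members and lists were chosen with earlier results of these data known. RefSeq (GRCm38.p6) gave promoters for 7 of 7 members.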

Additional observations from a re-analysis of the deposited data

Results flagged for a closer look

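Of 28 sets of values (the 7 genes in the WT, IL10RAKO and DKO mice and in WT mice with mouse 11), 4 held a mouse separated from its group by Dixon's criterion. Its chance rate of about 5% is for independent sets of normally distributed values. Here the same WT mice enter sets with and without mouse 11, and some sets are near 0 reads. *Cd209a* was at 219 CPM in IL10RAKO mouse 1, against 46.1 to 70.1 CPM in the other 3 IL10RAKO mice. *Cd209d* was at 3.64 CPM in WT mouse 10, against 9.59 to 10.7 CPM in the other 3 WT mice. DKO mouse 14 was separated at *Cd209g* (0.791 CPM, 16 reads) and at *Retnla* (0.692 CPM, 14 reads), where the other DKO mice held 1 to 2 reads and 0 reads. With the other DKO mice at 0, any *Retnla* read in mouse 14 would have met the criterion. In the CCR2KO mouse, which was in no comparison, *Cd209d* was at 13.8 CPM, above the 4 WT mice.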

How the results depend on the processing

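Over 22 alternatives per comparison, 1 to 6 of the 7 genes were called lower in IL10RAKO mice, 2 to 7 in DKO mice and 0 between DKO and IL10RAKO mice. The lowest counts, 1 and 2, came from requiring at least 10 reads in every library, which left only *Mrc1* and *Cd209a* to be tested. Leaving out 1 library at a time gave 5 to 6, 7 to 7 and 0 to 0 genes. Adding WT mouse 11 left 4 genes called in IL10RAKO and 6 in DKO mice. *Cd209b* also lost its IL10RAKO call in the test against a 1.5-fold change (adjusted p = 0.0633). The fitted log2 fold change of *Cd209g* between DKO and IL10RAKO mice, which was not called, ranged from -1.05 to 1.07 when 1 library was left out and turned negative without DKO mouse 14 (-1.05) or IL10RAKO mouse 2 (-0.04). Every member's direction against WT was the same in all alternatives run. Scaling by library totals moved the median of all genes to -0.38 in IL10RAKO and -0.32 in DKO mice and changed no call of a member. No gene of the group fell under the low-count filter, so the alternatives planned for such genes were not run. No paired analysis was possible because each library is a different mouse and the replicate numbers were given in accession order.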
